A study of Mus musculus with 12 samples.

Results

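The regions described here lay in gene deserts, the long stretches of the mouse genome that hold no protein-coding gene. A region was a member when it was on a numbered chromosome and more than 100000 bp from the body of every protein-coding gene in the mm10 RefSeq annotation, on either side. Of the 94161 accessible regions deposited for the series, 10017 (10.6%) were members. Another 53932 regions overlapped the body of a protein-coding gene and 30120 lay 1 to 100000 bp from the nearest such gene, while 92 regions on other sequences were in none of these classes. The members were spread over 1072 deserts, each the interval between neighbouring protein-coding genes or a chromosome end, with a median of 5 members in a desert.

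The assay was ATAC-seq: a transposase inserts adapters into open chromatin, and the fragments it releases are sequenced. Each library held 10000 sorted splenic B cells from unstimulated female C57BL/6J mice, and there were 4 groups of 3 libraries: Lsd1 knockout (KO) marginal zone B cells (MZB), wild-type (WT) MZB, KO follicular B cells (FoB) and WT FoB. All groups were gated as Thy1.1-, F4/80-, CD11b-, B220+, CD93- and GL7-, with MZB further gated as CD23-, CD21hi and CD1d+ and FoB as CD23+, CD21mid and CD1d-. Which part of Lsd1 was deleted, which Cre was used and the age of the mice were not given in the sources used here. Whether the 3 libraries of a group were made from different animals was not stated, and the p-values below reflect the spread of libraries only.

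Levels are in rppm, the deposited unit, which scales each library to a common total of reads in peaks, and the libraries held 3169966 to 10375328 reads in peaks, so 3 reads were worth 0.289 to 0.946 rppm. The region over the 5′ end of Kdm1a, the gene for Lsd1, gave no check of the genotype, since the deleted part was not known; it averaged 25.1 ± 5.55 rppm in KO MZB and 23.0 ± 6.05 in WT MZB, and 20.6 ± 0.0610 in KO FoB and 22.8 ± 1.92 in WT FoB (SD, n = 3 each). Of 56 regions at marginal zone marker genes, 29 were higher and 3 lower in WT MZB than in WT FoB, and of 37 at follicular marker genes 15 were lower and none higher; over all tested regions 24.2% were higher and 11.4% lower. Of 24 regions at myeloid marker genes, 11 were higher and 2 lower in WT MZB, with summed levels of 149 to 162 rppm in WT MZB libraries and 104 to 112 in WT FoB libraries. T cell marker regions (at Cd3d, Cd3e and Cd5) summed to 73.4 to 80.2 rppm in WT MZB libraries and 73.4 to 78.8 in WT FoB libraries, and NK marker regions (at Klrb1c and Eomes) to 81.0 to 82.4 and 65.2 to 69.7, while Cd3g, Cd4, Cd8a and Ncr1 had no region. The part of other cells in the differences below was not tested. A library pools cells, so a larger share of cells with an open region and a more open region in each cell cannot be told apart.

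Gene deserts hold enhancers that can act on promoters far away along the chromosome, and genes for transcription factors and developmental regulators are known for lying beside them. Lsd1 (Kdm1a) is a histone demethylase that removes methyl groups from lysine 4 of histone H3 and is known to take part in the shutdown of enhancers. Marginal zone B cells stay at the border of the splenic follicles and respond fast to antigens in blood, and follicular B cells recirculate and give rise to most T cell-dependent responses. A desert can also hold genes for long noncoding RNAs and microRNAs, since its bounds are set by protein-coding genes alone.

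In all, 77 members overlapped the 300 bases around the start of a RefSeq noncoding gene, from 250 before the start to 50 after it. The promoter windows of 6 of these genes are shown because their members carry results given below; they were picked after the values were seen. The windows come from RefSeq (GRCm38.p6) and are written 5′ to 3′ on the strand of the gene, with motif matches in capitals. They are Gm41331 (chr15:60141576-60141875, plus strand), Gm30032 (chr5:112120864-112121163, minus strand), Gm12159 (chr11:45116879-45117178, minus strand), Gm35419 (chr14:62170964-62171263, minus strand), Morrbid (chr2:128429302-128429601, minus strand) and Mir99ahg (chr16:77329078-77329377, plus strand).
Gm41331: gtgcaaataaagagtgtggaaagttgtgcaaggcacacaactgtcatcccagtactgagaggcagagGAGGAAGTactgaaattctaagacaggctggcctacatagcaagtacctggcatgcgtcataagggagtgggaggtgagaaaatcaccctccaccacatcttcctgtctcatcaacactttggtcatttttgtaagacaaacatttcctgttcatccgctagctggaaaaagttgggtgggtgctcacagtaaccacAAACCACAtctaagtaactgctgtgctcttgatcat
Gm30032: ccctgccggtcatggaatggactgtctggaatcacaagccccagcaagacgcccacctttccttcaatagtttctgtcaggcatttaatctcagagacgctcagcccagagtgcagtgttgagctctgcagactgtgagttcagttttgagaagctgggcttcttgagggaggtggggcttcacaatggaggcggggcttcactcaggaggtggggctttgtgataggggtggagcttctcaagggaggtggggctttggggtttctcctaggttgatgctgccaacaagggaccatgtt
Gm12159: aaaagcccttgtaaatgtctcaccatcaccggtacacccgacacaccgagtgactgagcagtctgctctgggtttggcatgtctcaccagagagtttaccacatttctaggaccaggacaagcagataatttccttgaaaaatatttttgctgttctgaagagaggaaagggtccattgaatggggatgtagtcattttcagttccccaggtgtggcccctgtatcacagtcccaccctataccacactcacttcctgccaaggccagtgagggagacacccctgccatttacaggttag
Gm35419: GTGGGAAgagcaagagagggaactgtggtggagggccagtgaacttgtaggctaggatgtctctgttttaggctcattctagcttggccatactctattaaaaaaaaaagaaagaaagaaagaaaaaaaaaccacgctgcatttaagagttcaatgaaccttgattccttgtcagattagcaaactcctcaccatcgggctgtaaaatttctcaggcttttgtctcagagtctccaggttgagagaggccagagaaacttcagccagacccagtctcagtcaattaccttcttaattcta
Morrbid: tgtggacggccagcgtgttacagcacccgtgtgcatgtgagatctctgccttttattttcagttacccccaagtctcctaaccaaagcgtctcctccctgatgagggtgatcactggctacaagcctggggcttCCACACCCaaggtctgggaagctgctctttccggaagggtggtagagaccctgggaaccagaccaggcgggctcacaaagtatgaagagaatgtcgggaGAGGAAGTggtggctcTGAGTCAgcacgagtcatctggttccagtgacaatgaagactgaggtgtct
Mir99ahg: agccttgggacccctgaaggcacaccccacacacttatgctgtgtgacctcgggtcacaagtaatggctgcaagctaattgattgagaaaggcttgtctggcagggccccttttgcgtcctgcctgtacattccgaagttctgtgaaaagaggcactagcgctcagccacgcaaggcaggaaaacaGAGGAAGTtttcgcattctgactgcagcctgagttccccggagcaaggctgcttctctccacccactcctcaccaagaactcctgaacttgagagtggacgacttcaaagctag

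All 300 bases lay inside the member for Gm41331, Gm30032, Gm12159 and Morrbid, 257 for Gm35419 and 160 for Mir99ahg. The windows were searched on both strands for the letters of 12 motifs. The PU.1 motif GAGGAAGT was in 3 of the 6 windows (Gm41331, Morrbid and Mir99ahg) and in 3.20% of all 32851 RefSeq promoter windows. The Runx motif TGTGGTTT was in the Gm41331 window on the reverse strand (1.78% of all windows) and the Klf motif CCACACCC in the Morrbid window (3.56%). The Morrbid window also held the AP-1 motif TGANTCA (7.81%), and the Gm35419 window opened with the Rbpj motif GTGGGAA (6.38%). This Rbpj match lay outside the member, which covered only the last 257 bases of the Gm35419 window. None of the 6 windows held the Ets core CCGGAAGT (3.89% of all windows), the E-box CAGCTG (16.3%), the Ebf motif (0.904%), the octamer ATGCAAAT (1.74%), the NF-kB motif (1.47%), the Irf motif (3.44%) or the CRE TGACGTCA (1.79%). No printed match overlapped another, and a match describes the letters only.

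The other sequences shown are the mature microRNAs made from Mir100hg and Mir99ahg, the hosts of paralogous microRNA clusters, because both host genes held members that differed between the cell types. The seed, bases 2 to 8, is in capitals, the build is GRCm38.p6, and all of them lie on the plus strand. Mature miR-100-5p (chr9:41531437-41531458) and miR-99a-5p (chr16:77598940-77598961) share the seed ACCCGUA and are identical at 21 of 22 bases; the difference is A16U, counted from the 5′ end of miR-100-5p. The let-7c-5p copy shown is at chr16:77599672-77599693, and the same miR-125b-5p is made at chr9:41581940-41581961 and chr16:77646279-77646300.
miR-100-5p: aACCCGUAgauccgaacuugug
miR-99a-5p: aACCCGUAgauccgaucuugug
let-7c-5p: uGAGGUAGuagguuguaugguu
miR-125b-5p: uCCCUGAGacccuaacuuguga

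Most desert regions were narrow and weakly accessible, and a few were among the highest levels in the table. Their median width was 235 bp, against 323 bp for regions 1 to 100000 bp from a gene and 373 bp for regions overlapping one. The median of the mean level over the 12 libraries was 1.71 rppm in deserts (range 0.0212 to 491, quartiles 1.13 and 3.80), against 3.42 and 4.96 rppm in the nearer classes. Scaled by width, the medians were 7.80 rppm per kb in deserts and 10.8 and 14.3 in the nearer classes, so the order held per length. A read was present in all 12 libraries for 80.6% of members, and 4.96% of members averaged 20 rppm or more, against 9.34% and 19.99% in the nearer classes. For the comparisons below, 9279 members (92.6%) passed a filter of 1 rppm in at least 3 libraries and were tested, and 738 were not.

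**Figure D1:**
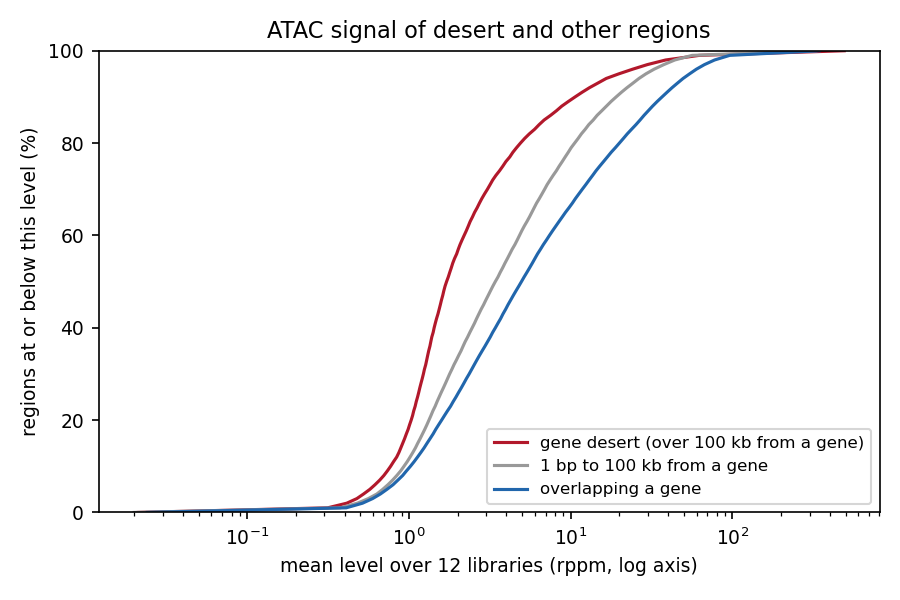
Cumulative share of regions (percent, vertical axis) at or below each mean level over the 12 libraries (rppm, log axis) for desert regions, regions 1 bp to 100 kb from a gene and regions overlapping a gene. The desert curve lies to the left over most of its course, with medians of 1.71, 3.42 and 4.96 rppm, and the curves meet near 100 rppm.

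The members together took 5.93, 5.52 and 5.33% of the reads in peaks in the KO MZB libraries, against 6.09, 5.72 and 5.95% in the WT MZB libraries. In the FoB libraries they took 5.21, 5.15 and 5.59% in KO, against 5.29, 4.80 and 5.80% in WT. Over all members, the ranges overlapped between KO and WT in both cell types. The 53 members at 100 rppm or more took part of this share; without them the means were 4.63 ± 0.174% in KO MZB, 4.89 ± 0.0362% in WT MZB, 4.20 ± 0.123% in KO FoB and 4.24 ± 0.134% in WT FoB (SD, n = 3 each). Without them, the MZB libraries lay above the FoB libraries of the same genotype, and the KO MZB libraries (4.82, 4.49 and 4.57%) lay below the WT MZB libraries (4.88, 4.86 and 4.93%), while KO and WT FoB overlapped.

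The strongest members gathered at a few places. The highest, chr14:19418473-19419002, had 488, 539 and 318 rppm in KO MZB, 593, 343 and 472 in WT MZB, 497, 511 and 629 in KO FoB, and 426, 279 and 798 in WT FoB. Its values overlapped between all groups, and the widest spread was within WT FoB. A neighbour at chr14:19415732-19416087 averaged 471 rppm, chr12:3109875-3110150 averaged 421 rppm and 4 of the 10 strongest lay in the desert between the start of chromosome 9 and Alkbh8. That desert held 40 members with a median of 131 rppm, and none was called in any comparison. Of the 10 strongest members, only chr6:9889902-9890233 (402 rppm, 640283 bp from Nxph1) was called: 0.26 ± 0.07 on the log2 scale in WT MZB over WT FoB (adjusted p = 0.0024, limma) and -0.26 in KO over WT MZB (adjusted p = 0.047). Neither call was made by edgeR on recovered reads (adjusted p = 0.44 and 0.12), the first was lost without WT FoB library 2 (0.095) and the second without any 1 of the 6 MZB libraries (0.068 to 0.25) or KO FoB library 1 or 2 (0.055 and 0.067). No mask of repeat or high-signal regions was applied here, and whether these levels reflect accessibility was not tested.

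The cell types differed at many desert regions. Between WT MZB and WT FoB, 1733 of the 9279 tested members were higher in MZB (18.7%, against 24.2% of all 89782 regions tested) and 596 were lower (6.42%, against 11.4%), at an adjusted p under 0.05 (limma, Benjamini-Hochberg over all tested regions). Of these, 1251 were at least 2-fold higher and 250 at least 2-fold lower on the log2(rppm + 0.5) scale, which understates the change of low regions. WT MZB and WT FoB libraries were fully separated at 34.3% of tested members, against 46.7% of all regions tested. The median log2 difference was 0.24 for members and 0.18 for all regions tested; edgeR with its own scaling (TMM) moved these to 0.18 and 0.05 and split the members' calls into 1504 higher and 854 lower. Both shares of calls were below those over all regions, and the count of higher members exceeded that of lower ones under both scalings.

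The share of higher calls was smaller in bins farther from genes, and so was the level. Of tested members 100000 to 200000 bp from the nearest gene, 23.5% were higher in WT MZB, followed by 17.7% at 200000 to 500000 bp, 13.2% at 500000 to 1000000 bp and 8.17% beyond 1000000 bp. In the classes nearer to genes, 25.1% (1 to 100000 bp) and 24.8% (gene body) were higher. The share lower in WT MZB was 7.10, 6.43, 4.53 and 6.51% over the same desert bins, against 8.52% and 13.96% in the nearer classes. The median level of all members in the bins was 2.12, 1.65, 1.48 and 1.48 rppm. These are counts over regions, described with no test.

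**Figure D2:**
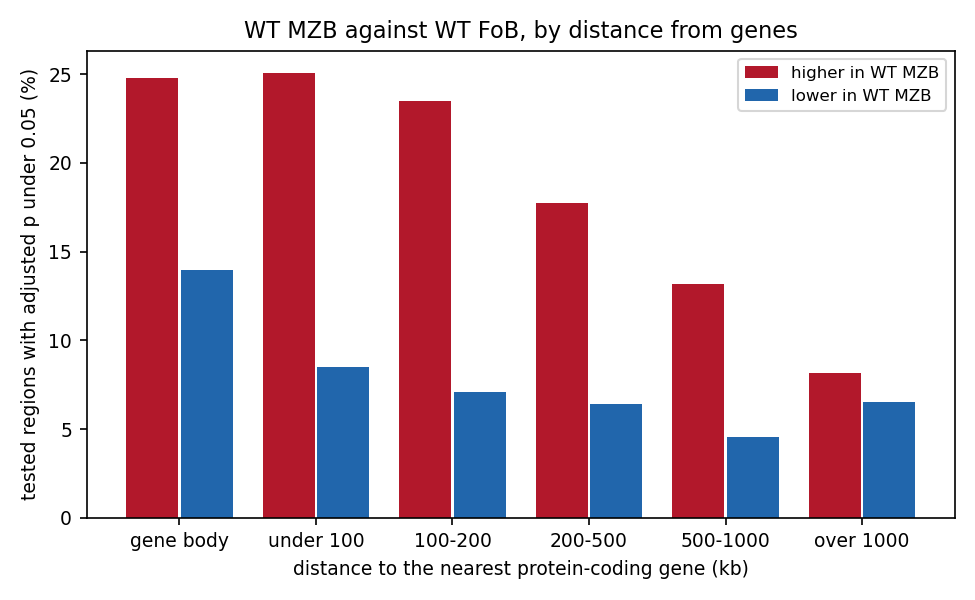
Share of tested regions (percent) called higher or lower in WT MZB than in WT FoB at an adjusted p under 0.05 (limma), by distance to the nearest protein-coding gene (kb), from gene bodies on the left to the most remote members on the right. Among members, the bars for higher calls are tallest at 100000 to 200000 bp (23.5%) and shortest beyond 1000000 bp (8.17%).

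Read by level, the share of members higher in WT MZB was largest at 5 to 20 rppm. There, 37.0% of members were higher and 14.8% lower in WT MZB, while 29.2% of the other regions at that level were higher. Below 2 rppm, 10.3% of the 4931 tested members were higher, against 23.0% of other regions. At 20 to 100 rppm more were lower than higher, both among members (22.1% higher and 30.9% lower) and among other regions (10.2% and 40.9%). At 100 rppm or more, 1.89% of members were higher and 17.0% lower, against 1.81% and 72.8% of other regions.

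Among the members with the largest MZB-biased differences, the strongest lay 286662 bp from Cxcr4, which encodes the receptor for the chemokine Cxcl12. This region, chr1:128878961-128879436, had 17.96, 21.5 and 21.9 rppm in KO MZB, 20.2, 27.9 and 21.8 in WT MZB, 0.207, 1.03 and 0.508 in KO FoB, and 0, 0.868 and 0.716 in WT FoB. Every MZB library was high and every FoB library was near the value of a few reads, with no overlap between the cell types. The log2 difference was 4.65 ± 0.31 in WT (adjusted p = 2.5e-14) and 4.34 in KO (adjusted p = 1.5e-13). A second region of this desert, chr1:129001756-129002082, lay 409.5 kb from Cxcr4, farther than from Thsd7b at the other end. It held 75 reads over the 3 WT MZB libraries and 1 read over the 3 WT FoB libraries. The ratio was 128 per library read (exact 95% interval 22.3 to 5118, counting error only).

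The other members with the largest MZB-biased differences lay beside genes of several kinds. At chr4:47818781-47819432, 225646 bp from the nuclear receptor gene Nr4a3, the means were 36.8 ± 3.18 rppm in WT MZB and 1.51 ± 0.618 in WT FoB (SD, n = 3 each), a log2 difference of 4.26 ± 0.21 (adjusted p = 1.8e-17), against 28.8 and 2.65 rppm and a log2 difference of 3.24 in KO. At chr1:184480377-184481258, 245885 bp from the homeobox gene Hlx, the means were 36.2 ± 4.55 rppm in WT MZB and 1.60 ± 0.469 in WT FoB (4.15 ± 0.25, adjusted p = 2.1e-15), and a second region in that desert, chr1:184477961-184478343, differed by 3.79. In KO cells the first of these had 28.1 ± 4.51 rppm in MZB and 0.735 in FoB. The remaining regions on the list of 10 lay beside Agtr1b (angiotensin receptor; chr3:20729892-20730355, 15.7 rppm in WT MZB and 0.535 in WT FoB), Zc3h12c (RNA-binding protein; chr9:52341644-52342306, 19.1 and 0.830 rppm, and a second region), Rnd3 (chr2:51376574-51377111) and Xylt1 (proteoglycan synthesis; chr7:117771793-117772182). At the Xylt1 region WT MZB held 90 reads and WT FoB 3, a ratio of 51.2 per library read (17.0 to 253). None of these regions overlapped between the WT cell types, by the rule that chose them.

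The members with the largest FoB-biased differences included 3 beside Ebf1, which encodes a transcription factor needed to set up and keep B cell identity. At chr11:45323674-45324413, 315578 bp from Ebf1, the levels were 1.40, 3.16 and 3.55 rppm in KO MZB, 2.43, 2.66 and 1.87 in WT MZB, 12.4, 16.1 and 12.5 in KO FoB, and 17.8, 15.6 and 15.8 in WT FoB. All FoB libraries were above all MZB libraries. The log2 difference was -2.59 ± 0.24 in WT (adjusted p = 8.3e-11) and -2.21 in KO. The others, at 126597 and 446183 bp from Ebf1, differed by -2.32 and -2.25 in WT. The more distant lay nearer to Clint1, at the other end of the desert.

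A region in the desert of Mef2c, a MADS-box factor used in B cell activation, had higher levels. At chr13:82072336-82072938, 1431079 bp from Mef2c and 275181 bp from Cetn3, KO MZB had 9.56, 13.9 and 11.8 rppm, WT MZB 8.64, 7.71 and 10.3, KO FoB 46.2, 42.0 and 46.3, and WT FoB 45.7, 50.7 and 51.8. MZB libraries were low in both genotypes, and the log2 difference was -2.42 ± 0.14 in WT (adjusted p = 5.3e-16) and -1.90 in KO. Other FoB-biased members on the list lay beside Sox4 (an Sry-box factor of B cell development; -2.24), Tshz1 (a zinc finger homeobox gene; -2.30) and Samd9l (-2.47 and -2.31), and at Ighv8-8 in the heavy chain variable segments (-2.42 and -2.36). The variable segments are close copies of each other, and reads could be split among them, so the values at Ighv8-8 are uncertain.

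In KO cells the cell types differed at a like number of members. Of the 9279 tested, 1595 were higher (17.2%, against 23.2% of all regions) and 569 lower (6.13%, against 9.47%) in KO MZB than in KO FoB; edgeR called 1338 and 823. The KO and WT comparisons contrast different libraries, but 1 fit over all 12 libraries gave the spread for both. Their calls are therefore not independent. In both, 1231 members were higher in MZB, which was 77.2% of the KO calls and 71.0% of the WT calls. Lower in both were 342 members (60.1% and 57.4%). Called in opposite directions were 1 of the WT higher calls and 3 of the WT lower calls. KO MZB and KO FoB libraries were fully separated at 31.2% of tested members, against 42.3% of all regions. The median log2 difference was -0.0029 in KO for members and 0.14 for all regions, and with TMM -0.13 and 0.0048, while in WT it was positive for members under both scalings. Single libraries moved the members' median in KO, to 0.11 without KO FoB library 3, 0.06 without KO MZB library 2 and -0.07 without KO MZB library 1, and in WT to 0.15 without WT FoB library 2 and 0.35 without WT FoB library 1. The members with the largest FoB-biased differences in KO included 1 at 876189 bp from Bcl11a, a zinc finger factor needed for B lymphopoiesis (-2.29), and 1 at 126393 bp from Btg1, an antiproliferative gene (-2.23).

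In some deserts nearly all calls had the same direction. Whether this went beyond what the shares over all members would give was not tested. Of 124 deserts with at least 20 tested members, 77 had more higher than lower members in WT MZB, 30 had more lower and 17 had as many of each, and 51 had calls in both directions. The most one-sided on the MZB side was the desert between Dusp10 and Hlx, where 18 of 20 tested members were higher in WT MZB and none was lower, and 16 were higher in KO MZB. Between Pcdh9, a protocadherin gene, and Spertl, 36 of 60 were higher and none lower, and between Plekhb2 and Hs6st1 22 of 35 were higher. On the FoB side, 20 of 31 between Ebf1 and Clint1 were lower in WT MZB, with 2 higher, and 18 of 32 between Prl5a1 and Sox4, with none higher. These deserts were picked after their counts were seen.

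**Figure D3:**
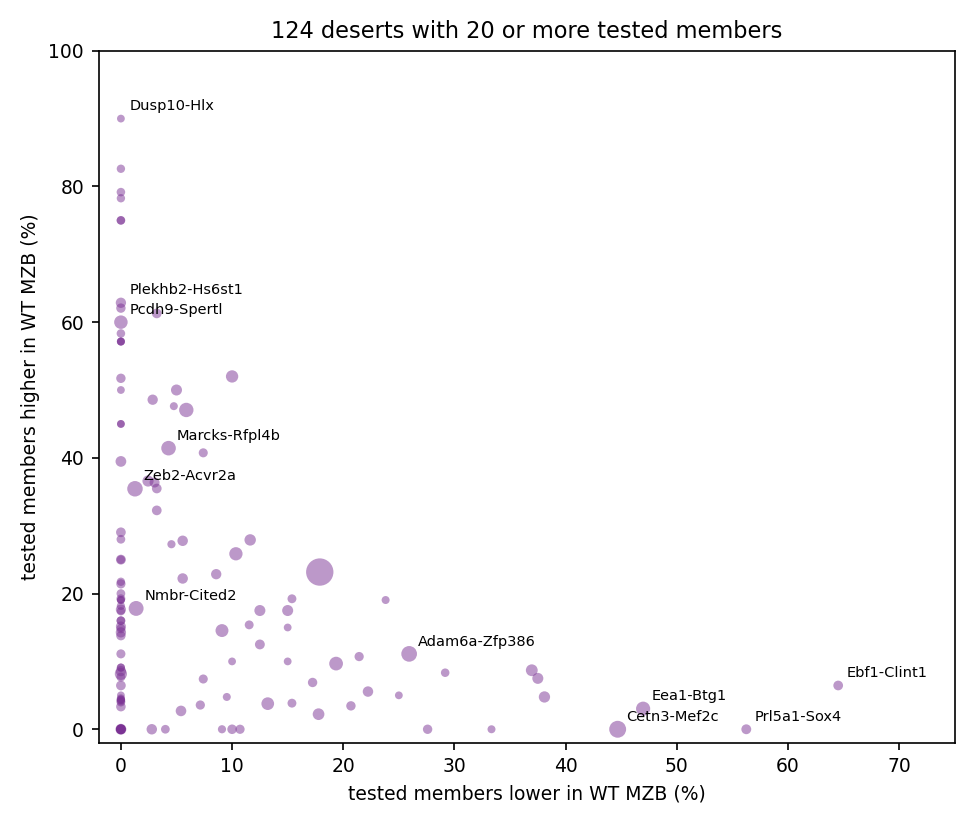
Each point is a desert with at least 20 tested members (124 deserts), placed by the percent of tested members lower (horizontal axis) and higher (vertical axis) in WT MZB than in WT FoB, with area by the number of tested members. Dusp10-Hlx stands at the top with 18 of 20 members higher, and Ebf1-Clint1 at the right with 20 of 31 lower.

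Deserts with many members were of different kinds. Between Cetn3 and Mef2c, 42 of 94 tested members were lower and none higher in WT MZB, and 44 were lower and none higher in KO MZB. Between Zeb2, a zinc finger repressor gene, and Acvr2a, 28 of 79 were higher and 1 lower in WT MZB, and 33 were higher in KO MZB. Between Adam6a and Zfp386, in the immunoglobulin heavy chain locus, 9 of 81 were higher and 21 lower. Between Nmbr and Cited2, 13 of 73 were higher and 1 lower, and between Marcks and Rfpl4b 29 of 70 were higher and 3 lower.

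Within a desert the differences were not spread evenly. Beside Cxcr4, called members lay 132 to 486 kb from the gene with log2 differences of -1.07 to 4.65. The most distant lay nearer to Thsd7b, at the other end of the desert. Beside S1pr1, the receptor for sphingosine 1-phosphate that takes part in holding B cells in the marginal zone, 11 of 17 tested members were higher in WT MZB and none lower. All 11 lay between 109 and 180 kb from the gene. The member with the smallest p there, chr3:115568252-115568706, had 19.4, 26.2 and 25.1 rppm in KO MZB, 25.9, 21.3 and 24.3 in WT MZB, 2.07, 1.24 and 1.27 in KO FoB, and 3.01, 2.51 and 2.39 in WT FoB. MZB libraries were all far above FoB libraries, with a log2 difference of 2.96 ± 0.21 in WT (adjusted p = 1.0e-13).

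**Figure D4:**
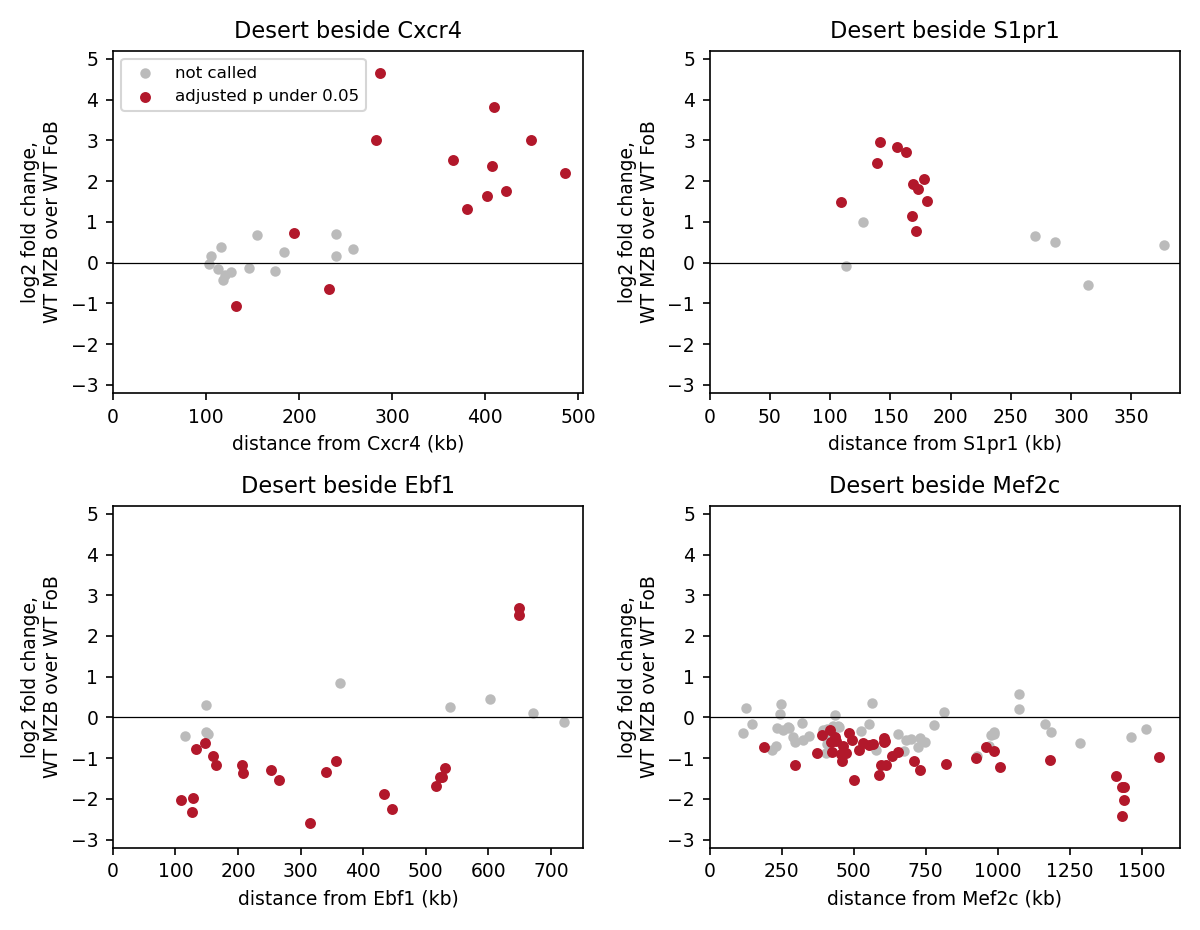
Log2 fold change of WT MZB over WT FoB (vertical axis) for each tested member, by its distance (kb) from Cxcr4, S1pr1, Ebf1 and Mef2c; red points have an adjusted p under 0.05 and grey points do not. Called members reach 4.65 beside Cxcr4 and 2.96 beside S1pr1, and -2.59 beside Ebf1 and -2.42 beside Mef2c.

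Of 47 genes of B lineage transcription factors on a list, 26 bordered a desert with members, in all 854 members. Of the 797 tested, 163 were higher (20.5%) and 134 lower (16.8%) in WT MZB, with a median log2 difference of 0.09. The shares were 18.7% and 6.42% over all tested members, and 24.2% and 11.4% over all regions tested. By gene, lower members outnumbered higher ones beside Mef2c (42 against 1), Ebf1 (20 against 2), Sox4 (18 against none), Satb1 (9 against 2) and Bcl11a (7 against 2). Higher members outnumbered lower ones beside Zeb2 (28 against 1), Id2 (26 against 5), Klf4 (15 against none), Zfp36l2 (12 against none) and Tox (9 against none). Beside Myc, 26 were higher and 14 lower, but its flanks differed: 20 and 2 between A1bg and Myc, and 6 and 12 between Myc and Gsdmc.

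Of 46 genes of marginal zone and follicular cells and of migration, 11 bordered a desert, with 139 tested members. Of these 47 were higher (33.8%) and 9 lower (6.47%) in WT MZB. The shares were 18.7% and 6.42% over all tested members, and 24.2% and 11.4% over all regions tested. Beside Ackr3, an atypical chemokine receptor gene, and beside S1pr3, all 3 tested members were higher, and beside Hes1, a Notch target gene, 9 of 16 were higher and none lower. Beside Itga4, an integrin gene, 5 of 20 were lower and 1 higher, and beside Cr2, which encodes the CD21 used in the gate, none of 4 was called. Genes of other blood cells bordered few deserts (5 of 38 genes, 32 tested members, 10 higher and none lower), 6 of the 10 beside Cebpb. The 68 developmental regulators were listed as genes that border gene deserts, so it is no result that 52 bordered a desert with members. Of the 661 tested members beside them 82 were higher (12.4%) and 22 lower (3.33%), both below the shares of all tested members. These lists are described by counts, since they were drawn up with earlier results of these data known.

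Members at noncoding genes were among those that differed. At Gm35419, a noncoding gene between Kcnrg and Dleu7 whose window is printed above, chr14:62170487-62171220 had 9.80, 9.78 and 9.46 rppm in KO MZB, 9.72, 14.6 and 9.64 in WT MZB, 0.828, 0.618 and 0.508 in KO FoB, and 0.274, 0.386 and 0.716 in WT FoB. All MZB libraries were high, and the log2 difference was 3.63 ± 0.30 in WT (adjusted p = 4.4e-12) and 3.15 in KO. At Gm12159, 108504 bp from Ebf1, chr11:45116600-45117294 was lower in MZB, with 13.5, 14.2 and 14.8 rppm in KO MZB, 11.3, 13.0 and 11.2 in WT MZB, 40.4, 40.0 and 36.3 in KO FoB, and 49.6, 49.5 and 50.4 in WT FoB (-2.03 ± 0.12 in WT, adjusted p = 1.7e-15, and -1.42 in KO). At Morrbid, a long noncoding RNA known in myeloid cells for repressing Bcl2l11, which lies 266591 bp away, chr2:128429138-128429608 had 7.93, 6.94 and 4.14 rppm in KO MZB, 6.48, 5.05 and 5.91 in WT MZB, 1.45, 2.27 and 1.78 in KO FoB, and 1.64, 1.45 and 0.239 in WT FoB. MZB was higher without overlap, by 2.11 ± 0.34 in WT (adjusted p = 5.3e-06) and 1.52 in KO (adjusted p = 5.5e-04). At Dubr, a strong member (100.7 rppm on average) differed by -0.04 in WT (adjusted p = 0.75).

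Of all members, 1515 overlapped a long noncoding RNA gene and 7993 no noncoding gene. Among tested members, 25.6% of the first were higher and 9.93% lower in WT MZB, against 17.2% and 5.21% of those with no noncoding gene. The first were also stronger and wider, with medians of 2.60 rppm and 294 bp against 1.61 rppm and 224 bp. The part of level and width in this difference was not tested. Of the 73 tested members at noncoding promoters, 15 were higher and 16 lower. The antigen receptor loci count as deserts because their segments are not annotated as protein-coding: 394 members lay within 100000 bp of a segment, and without them 1656 of 8900 tested members were higher and 529 lower in WT MZB. The T cell receptor alpha locus had 31 members, and of the 25 tested 7 were higher and none lower in WT MZB. Over all regions tested, 24.2% were higher and 11.4% lower.

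Both microRNA host genes held members with MZB-biased levels. Of 5 members in Mir100hg all 5 were higher in WT MZB and all 5 in KO MZB than in FoB of the same genotype, with log2 differences of 1.37 to 2.06 in WT. The member nearest to the Mir100 hairpin, chr9:41526116-41526541, lay 4884 bp from it and had 2.33, 2.84 and 4.73 rppm in KO MZB, 3.78, 3.19 and 5.29 in WT MZB, 1.45, 0.618 and 0 in KO FoB, and 1.37, 0.193 and 0.478 in WT FoB. Its MZB levels lay above all its FoB levels at a depth where 3 reads are worth up to 0.946 rppm. In Mir99ahg 4 of 5 members were higher in WT MZB and 3 in KO MZB. The promoter member of Mir99ahg, chr16:77329218-77329630, had 3.50, 2.84 and 4.43 rppm in KO MZB, 4.86, 3.19 and 2.80 in WT MZB, 2.69, 2.27 and 1.27 in KO FoB, and 1.37, 1.35 and 1.19 in WT FoB; it differed by 1.16 in WT (adjusted p = 0.0045) and 0.69 in KO (adjusted p = 0.097). No member of either gene was called between KO and WT, and no microRNA hairpin in a desert overlapped a member.

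Few desert regions were called between KO and WT. In MZB, 51 members were higher in KO than in WT (0.550%, against 0.502% of all regions tested) and 34 were lower (0.366%, against 0.275%); both shares were near the background, and in either direction 0.777% of all regions were called. In FoB, 24 were higher (0.259%, against 0.320%) and 23 lower (0.248%, against 0.219%), with 0.539% of all regions called in either direction. In MZB, 1660 of the 9279 tested members had an unadjusted p under 0.05 (limma), against 11909 of all 89782 regions tested. In FoB there were 730, against 8126. KO and WT libraries were fully separated at 21.0% of tested members in MZB, against 17.7% of all regions, and at 12.03% in FoB, against 14.7%. Single libraries moved these counts: lower calls in MZB numbered 4 without WT MZB library 3 and 92 without KO MZB library 1, and higher calls 20 without KO MZB library 2 or WT MZB library 2. In all, 12 of the 85 MZB calls and 12 of the 47 FoB calls were made without each library in turn, and edgeR also called 55 and 36 of them.

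Higher and lower calls in MZB differed in level. Of the 51 higher members 30 averaged 5 to 20 rppm and 12 averaged 20 to 100 rppm, whereas 19 of the 34 lower members averaged under 2 rppm. Over all tested members the median log2 difference of KO over WT was -0.20 in MZB, against -0.02 over all regions, and it was -0.36 for members under 2 rppm and 0.01 at 5 to 20 rppm. The members under 2 rppm took 0.677, 0.527 and 0.528% of reads in the KO MZB libraries and 0.774, 0.772 and 0.798% in the WT MZB libraries. The shallowest libraries of the series were KO MZB library 2 (3169966 reads in peaks) and WT MZB library 3 (3215626). The median in MZB was -0.21 with TMM scaling and -0.08 for members averaging at least 2 rppm. Regions at marker genes of immature and transitional B cells summed to 61.1 to 77.1 rppm in KO MZB and 40.8 to 49.7 in WT MZB, with 1 of 8 regions higher in KO. Most of this sum was at Cd93 (58.8 rppm in KO MZB and 36.5 in WT MZB), the marker gated against; Rag1 had 5.27 rppm in both, Igll1 3.55 and 2.58, and Rag2 and Vpreb1 had no region. In FoB the summed levels were 85.9 to 89.6 rppm in KO and 78.0 to 83.0 in WT. T cell marker regions summed to 82.6 to 90.85 rppm in KO MZB and 73.4 to 80.2 in WT MZB. In FoB they summed to 80.7 to 84.9 in KO and 73.4 to 78.8 in WT. NK marker regions summed to 89.8 to 102.6 rppm in KO MZB and 81.0 to 82.4 in WT MZB. In FoB these summed to 84.7 to 93.1 in KO and 65.2 to 69.7 in WT. None of the T cell and NK regions was called between KO and WT, and myeloid sums overlapped. The part of depth and of other cells in these results was not tested. In FoB the median was -0.05 for members.

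Members called in both cell types numbered 4 higher (7.84% of the MZB calls and 16.7% of the FoB calls) and 2 lower (5.88% and 8.70%), with none in opposite directions. The first described here overlapped the start of Gm41331, the window with the PU.1 and Runx letters printed above. This region, chr15:60141501-60142185, had 22.4, 25.2 and 27.8 rppm in KO MZB and 9.18, 12.5 and 8.71 in WT MZB, and 39.1, 40.0 and 35.8 in KO FoB and 17.0, 22.8 and 19.1 in WT FoB. KO was above WT without overlap in both cell types, by 1.28 ± 0.14 in MZB (adjusted p = 6.2e-07) and 0.95 ± 0.14 in FoB (adjusted p = 1.4e-04). None of its 97 tested neighbours within 1 Mb was called in MZB, and 1 was in FoB.

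A second such region overlapped the start of Gm30032, between Mn1 and Cryba4. It lay at chr5:112120850-112122100 and had 16.1, 18.9 and 15.4 rppm in KO MZB and 6.21, 6.38 and 7.78 in WT MZB, and 16.8, 17.1 and 15.8 in KO FoB and 4.11, 8.48 and 5.01 in WT FoB. KO was again higher without overlap, by 1.25 ± 0.19 in MZB (adjusted p = 2.5e-04) and 1.48 in FoB (adjusted p = 1.5e-05). Another member of this desert, chr5:112092203-112092511, was higher in KO MZB, with 4.43, 5.68 and 5.32 rppm against 1.35, 1.06 and 0.933 in WT MZB (1.81, adjusted p = 3.8e-04).

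Among the members higher in both cell types, the one with the largest rise in MZB, chr18:83866073-83866633, lay 144994 bp from Tshz1. It had 21.7, 12.6 and 18.6 rppm in KO MZB and 2.70, 3.72 and 3.11 in WT MZB, and 40.2, 33.2 and 34.1 in KO FoB and 15.1, 22.5 and 15.8 in WT FoB. WT MZB stood far below the other groups, and KO was higher by 2.28 ± 0.18 in MZB (adjusted p = 2.0e-10) and 1.01 in FoB (adjusted p = 0.0016). Of its 84 tested neighbours within 1 Mb, 12 (14.3%) were also called in MZB and 7 (8.33%) in FoB, so this call was among many close together. Nearby, a region 157471 bp from Tshz1 rose by 1.27 in KO MZB (adjusted p = 0.0064; 0.079 without KO MZB library 2 or WT MZB library 1). Without members among such gathered calls, 39 members were higher and 32 lower in KO MZB, and 23 and 22 in KO FoB.

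The last member higher in both cell types, chr6:98575107-98575643 between Gm765 and Foxp1, had 6.53, 11.4 and 6.80 rppm in KO MZB and 3.78, 1.60 and 3.11 in WT MZB, and 6.42, 4.12 and 2.80 in KO FoB and 1.095, 1.35 and 1.91 in WT FoB. Foxp1 encodes a forkhead factor of B cell development. KO was higher without overlap, by 1.41 ± 0.31 in MZB (adjusted p = 0.019) and 1.30 in FoB (adjusted p = 0.041). The MZB call was lost without KO MZB library 2 (adjusted p = 0.16) or WT MZB library 2 (0.15), and the FoB call without KO FoB library 1 (0.30), KO FoB library 2 (0.12), WT FoB library 1 (0.17), WT FoB library 2 (0.087) or any of KO MZB libraries 2 and 3 and WT MZB library 3 (0.050 to 0.055).

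Of the members lower in both cell types, chr13:85724524-85725103 between Rasa1 and Cox7c had 11.4, 10.4 and 11.2 rppm in KO MZB and 21.3, 22.1 and 26.7 in WT MZB, and 6.00, 8.65 and 7.63 in KO FoB and 12.6, 17.8 and 16.5 in WT FoB. KO was below WT without overlap, by -1.05 ± 0.17 in MZB (adjusted p = 3.3e-04) and -1.03 in FoB (adjusted p = 4.7e-04), and both calls were made without each library in turn. At chr1:57594689-57595259, between Maip1 and Spats2l, KO MZB had 8.16, 13.3 and 9.46 rppm and WT MZB 15.9, 18.3 and 16.8, and KO FoB had 7.86, 10.5 and 6.61 and WT FoB 13.96, 16.4 and 12.2. The difference was -0.72 ± 0.18 in MZB (adjusted p = 0.045) and -0.75 in FoB (adjusted p = 0.044), the MZB call was lost without KO MZB library 1 or 3 or any WT MZB library (0.10 to 0.16), and the FoB call without KO FoB library 1 or 3 or any WT library (0.053 to 0.23).

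**Figure D5:**
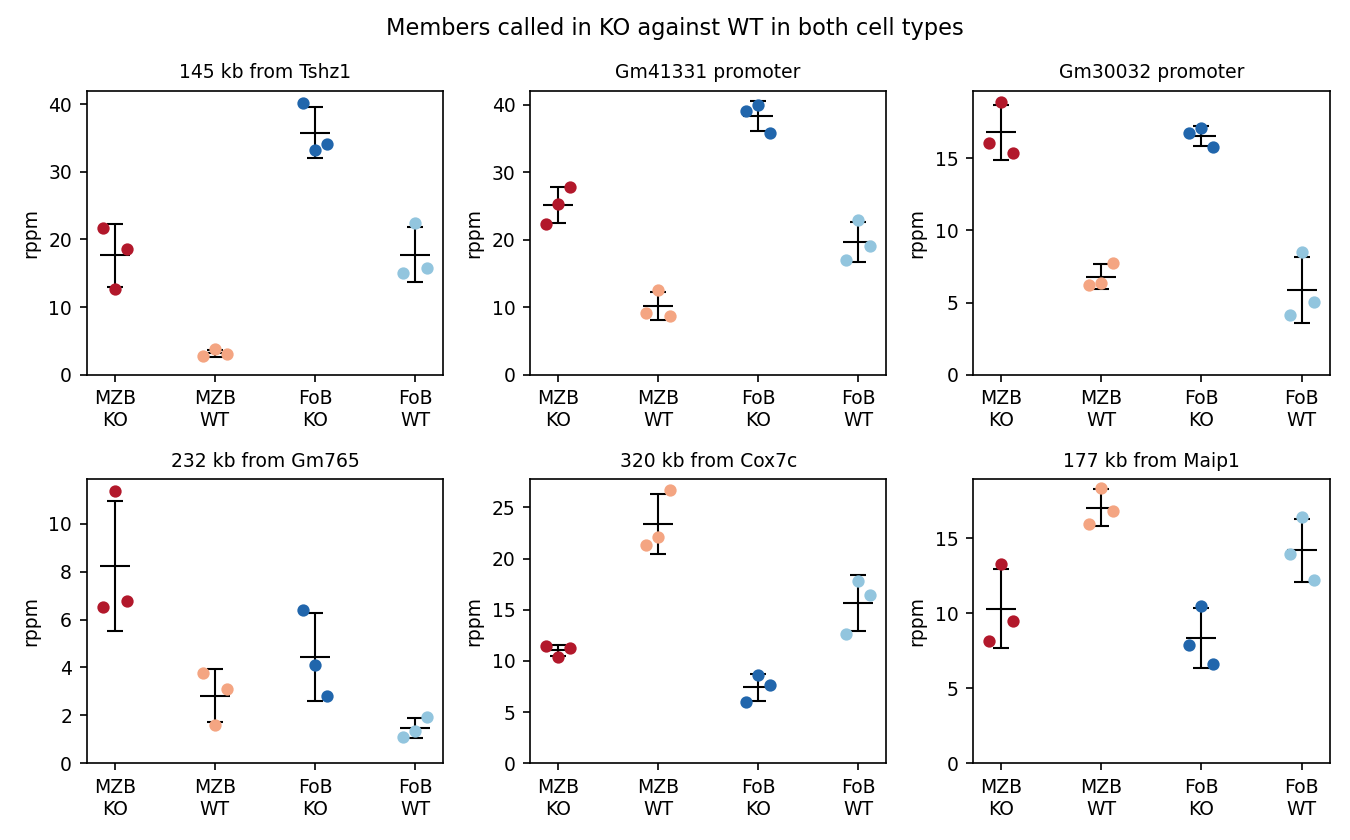
Levels (rppm) of the 6 members called between KO and WT in both cell types; points are libraries, horizontal lines are means and bars are SD (n = 3 per group). In the first 4 panels KO lies above WT in both cell types, and in the last 2 it lies below, as for chr13:85724524-85725103 with 10.4 to 11.4 rppm in KO MZB and 21.3 to 26.7 in WT MZB.

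Other members with the smallest p in MZB lay beside genes of many kinds. Higher in KO MZB were regions beside Setbp1 (1.05, adjusted p = 1.1e-04, with 8 of 79 neighbours called), Sdk2 at the noncoding gene Gm11690 (1.30, 0.0012), Sox4 at 190693 bp (0.80, 0.0018, with 5 of 75 neighbours called), Car2, a carbonic anhydrase gene (0.86, 0.0037), and Wdr11 (1.17, 0.0053). Lower in KO MZB was a region 103562 bp from Cxcr4, chr1:128695861-128696297, with 7.46, 5.36 and 8.28 rppm in KO MZB and 15.7, 16.2 and 15.2 in WT MZB. KO lay below WT without overlap, by -1.12 ± 0.18 (adjusted p = 4.9e-04), and 5 of its 92 neighbours were called. In FoB the difference was -0.72 (adjusted p = 0.060). The same desert held 2 members called in the other direction, 118.7 and 132.2 kb from Cxcr4, higher by 0.69 and 0.97 in KO MZB. A region 296933 bp from Mef2c differed by -1.15 (adjusted p = 0.019, and 0.055 to 0.15 without KO MZB library 2 or 3 or WT MZB library 3; edgeR 0.071). The region between Frg1 and Triml1, chr8:42916791, held 1 read in the 3 KO MZB libraries and 24 in the 3 WT MZB libraries, so WT was 24.4 times KO per library read (exact 95% interval 3.97 to 1002).

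In FoB, the member with the smallest p among those higher in KO alone was chr1:164652208-164652577, between Atp1b1 and Dpt. It had 15.1, 13.6 and 15.0 rppm in KO FoB and 4.93, 4.72 and 5.01 in WT FoB, with no overlap (1.48 ± 0.23, adjusted p = 3.1e-04), and differed by 0.91 in MZB (adjusted p = 0.053). Also higher in KO FoB were regions beside Id2, at 229737 bp (0.88, 0.0056, and 0.078 without KO FoB library 1), Trib1, a pseudokinase gene (0.93, 0.0040), and Tbl1xr1 (0.81, 0.0066, and 0.075 and 0.077 without KO FoB library 2 and WT FoB library 1). Lower in KO FoB was a region 114584 bp from Tet2, a gene of DNA demethylation: chr3:133659720-133660371 had 7.24, 8.24 and 8.39 rppm in KO FoB and 10.95, 14.6 and 14.1 in WT FoB (-0.69, adjusted p = 0.0056). Regions beside Tox (-2.09, 0.0051, and 0.053 without KO FoB library 2), Cd180, a Toll-like receptor relative (-1.54, 0.0049), and Rgs18 (-1.70, 0.0061, with 13 of 51 neighbours called) were lower as well. The Rgs18 call was lost without KO FoB library 3 (adjusted p = 0.056) or WT FoB library 1 (0.068).

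No member had a KO effect that differed between MZB and FoB at an adjusted p under 0.05, by limma or by edgeR, against 1 of 89782 regions in all (0.00111%). At an unadjusted p under 0.05 there were 730 of 9279 tested members by limma, against 5585 of all 89782 regions tested. By edgeR there were 741 members. So a call in 1 cell type alone, such as that beside Atp1b1, was not shown to be particular to it.

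The threshold of distance cut through a continuous range. The members just inside it lay 100023 bp from Cradd, 100048 bp from Ets2 and 100049 bp from Zc3h15, with 2.89, 1.65 and 1.87 rppm on average. The regions just outside lay 99998 bp from Sdk2, 99969 bp from Ppp6c and 99966 bp from Lhx1, with 2.27, 1.27 and 3.25 rppm. The most remote member was 2252364 bp from Pik3c3, its nearest gene, and the next were 2222414 bp from Pcdh20 and 2137592 bp from Cntnap5b. These 3 averaged 0.770 to 2.48 rppm and were called in no comparison.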

How the data were processed

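ATAC-seq of 12 libraries was analysed from 1 table of regions by libraries. Its values are RPM-like levels (rppm: reads in peaks, scaled to a common total), deposited by the authors; Bowtie 1.1.1, MACS2 and mm10 are named in the submitters' processing notes, with no account of multiply mapped reads in the sources used here. All values were whole multiples of 1 read (100% within 0.01 reads), so reads were recovered for an alternative test. Regions were tested on log2(rppm + 0.5) with limma 3.58.1 (R 4.3.3), trended empirical Bayes, in 1 fit over the 4 groups, after a filter of 1 rppm in 3 libraries; p-values were Benjamini-Hochberg adjusted over all 89782 tested regions. edgeR 4.0.16 (quasi-likelihood test, TMM) on recovered reads was an alternative. Distances were taken to 20665 protein-coding genes of GRCm38.p6; coordinates are as deposited, with the counting base not given.

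Named regions were the 10 highest, the 10 largest non-overlapping cell type differences in each direction (3 in KO), the 10 smallest p for KO in each direction, the 3 farthest, those beside the threshold, the 6 deserts with most members, and the best region for up to 3 genes a list. Members and lists were chosen with earlier results of these data known. Noncoding promoters, microRNA hosts and members called in both cell types were chosen after their values were seen. The desert with most members is not reported here.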

Additional observations from a re-analysis of the deposited data

How the results depend on the processing

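The cell type counts kept their direction in every alternative run. Moving the distance to 50000 bp gave 3045 higher and 952 lower members in WT MZB, 2865 and 876 in KO MZB over KO FoB, 77 and 54 for KO over WT in MZB, and 45 and 36 in FoB; at 200000 bp the counts were 833 and 324, 737 and 332, 14 and 24 in MZB, and 7 and 11 in FoB. Distance from any RefSeq gene left 232 and 62, 200 and 84, 5 and 11, and 4 and 2. These settings change which regions are members, and the summed share became 9.13% in KO MZB, 9.43% in WT MZB, 8.42% in KO FoB and 8.34% in WT FoB at 50000 bp, and 2.91, 3.20, 2.87 and 2.89% at 200000 bp; without the members at 100 rppm or more it was 4.63, 4.89, 4.20 and 4.24%. Lower calls in KO MZB numbered 56 with the compared groups alone, 13 with a mean of at least 2 rppm, 16 with a pseudocount of 0.1 and 78 with 2. Higher and lower calls in KO FoB numbered 10 and 8 with the compared groups alone; the cause was not tested. Leaving out each library gave 1446 to 1773 higher and 440 to 611 lower in WT MZB, 1350 to 1644 and 434 to 661 in KO MZB over KO FoB, 20 to 60 and 4 to 92 for KO over WT in MZB, 11 to 38 and 9 to 23 in FoB, and 0 to 1 and 0 to 0 for the difference of the KO effects. In FoB, the lowest counts came without WT FoB library 1 (11 higher) and KO FoB library 3 (9 lower), and the highest without WT FoB library 3 (38 higher). Deviations from the group means correlated by -0.0934 to 0.134 between libraries of the same replicate number. With 3 libraries a group, this cannot show whether they were paired. With the replicate numbers as a block the counts were 1740 and 597, 1601 and 586, 54 and 36, 23 and 27, and 0 and 0. The 28 WT cell type regions named for their size of change or from a gene list kept their call in every alternative. Of 22 KO regions named by p or called in both cell types, in each cell type, 4 MZB calls were lost with edgeR and 8 without KO MZB library 2 or WT MZB library 3, and 9 FoB calls with the compared groups alone. Depth limits regions near 3 reads (0.289 to 0.946 rppm), and p-values rest on 3 libraries a group.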
